A study of Mus musculus with 12 samples.

Results

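Molecular chaperones help newly made and damaged proteins to reach or regain their folded form. The 39 chaperone and protein folding genes described here were taken by name from the table of 26202 gene symbols and were separated by where their proteins work: 26 in the cytosol, 4 in mitochondria and 9 in the endoplasmic reticulum (ER). Of the 39 genes, 38 passed the filter of 10 CPM (counts scaled to the same total in every library) in at least 3 libraries and were tested among 9121 genes; the exception was Hspa1b, which is given by its levels.

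The study sequenced 12 libraries, 3 per group, of cultured mouse T helper cells to ask how loss of the integrin αv subunit, encoded by Itgav, affects their polarisation. The TH2 Itgav KO and TH1 Itgav KO cells came from Cd4 CreERT2 mice with a conditional αv allele, and the TH2 control and TH1 control cells from Cd4 CreERT2 mice without it, so that every group carries the inducible Cre expressed from Cd4. Naïve splenic cells were cultured for 5 days and live CD4+ cells were sorted with no gate on αv; the study's culture methods name 4-hydroxytamoxifen, which activates this Cre, without tying its use or timing to the sequenced cultures. The labels name neither mice nor cultures, so the p-values measure only the spread between these libraries, which may be technical.

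In the cytosol, HSP70 proteins bind unfolded stretches with J proteins as partners that stimulate them and Bag3 and HSP110 proteins that exchange their nucleotide, HSP90 matures kinases and receptors with its co-chaperones, and the ring-shaped TRiC chaperonin folds actin and tubulin. In mitochondria, Hspd1 (HSP60) and Hspe1 (HSP10) form the folding chamber, Hspa9 pulls proteins through the import channel and Trap1 is the HSP90 of that compartment. In the ER, which folds cytokines and surface receptors on their way out of the cell, Hspa5 (BiP) and Hsp90b1 (GRP94) act with J proteins, Calr and Canx hold glycoproteins, and protein disulfide isomerases form disulfide bonds.

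The targeted gene fell with the labels. Itgav was at 55.2, 43.5 and 60.5 CPM in TH2 Itgav KO libraries, against 250, 195 and 313 CPM in TH2 control libraries, and at 42.8, 21.3 and 28.1 CPM in TH1 Itgav KO libraries, against 227, 228 and 154 CPM in TH1 control libraries. The deposited values corresponded to 6344186 to 13312234 reads per library. Gata3, the lineage factor of TH2 cells, was at 660 to 831 CPM in the 6 TH2 libraries, against 9.31 to 28.5 CPM in the 6 TH1 libraries. The 4 TH2 markers (Gata3, Il4, Il5 and Il13) summed to 1454, 1190 and 1721 CPM in TH2 Itgav KO libraries, against 2019, 3143 and 2732 CPM in TH2 control libraries, without overlap, and 2 of the 4, the cytokines Il5 (difference -2.37, adjusted p = 0.0021, limma) and Il13 (difference -2.09, adjusted p = 0.00953, limma), were called lower. The 2 TH1 markers (Tbx21 and Ifng) summed to 4446 to 4869 CPM in TH1 Itgav KO libraries, against 8411 to 10239 CPM in TH1 control libraries, and 0 of the 2 were called by limma, with 1 at an unadjusted p below 0.05. T cell markers summed to 5260 to 6074 CPM over all libraries, and the 3 mast cell and basophil markers were at 0 in all of them. The summed B cell markers were at 9.15 to 11.98 CPM in TH2 Itgav KO cells, against 3.75 to 6.58 CPM in TH2 control cells, low in both but without overlap. In TH1 cells they were at 0.101 to 0.364 CPM (Itgav KO) and 0 to 0.826 CPM (control). Summed myeloid markers were higher in TH2 than in TH1 cells, without overlap within either genotype. They were at 12.9 to 32.1 CPM in TH2 control, against 2.11 to 9.16 CPM in TH1 control libraries. In Itgav KO libraries they were at 15.8 to 32.9 CPM (TH2), against 6.83 to 13.7 CPM (TH1). The part of the T helper, B cell and myeloid markers in the differences below was not tested. In such bulk samples, fewer cells of a type and less RNA per cell cannot be told apart.

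A known element of ER stress genes was searched for in the promoters of the members. Because it is known from such genes, its share among the ER genes is a description and not a test. The ER stress response element, a pair of boxes known as the site through which ATF6 and XBP1 act, was searched as CCAAT, any 9 bases and CCACG on both strands from 250 bases before to 50 bases after each RefSeq start site (GRCm38.p6), where 33 of the 39 members had a sequence. It was in the promoters of 6 of the 9 ER genes, of 0 of the 21 cytosolic genes with a sequence and of 0 of the 3 mitochondrial genes with one, against 0.137% of the 27025 gene symbols in the promoter table. Hspa8, Hsp90aa1, Hsp90ab1, Dnajc2, Cct4 and Hspa9 had no promoter sequence to search. The 6 stretches are shown because 3 of these genes are the ER genes called lower in TH2 Itgav KO cells and 3 were not called. Each is written on the strand of its gene, with the CCAAT and CCACG letters (CGTGG and ATTGG where the element lies on the other strand) in capitals.
Hspa5 (chr2:34772020-34772049, + strand): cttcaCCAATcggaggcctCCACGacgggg
Pdia6 (chr12:17266459-17266538, + strand): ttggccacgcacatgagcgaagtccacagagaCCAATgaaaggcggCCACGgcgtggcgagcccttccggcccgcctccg
Calr (chr8:84847042-84847121, - strand): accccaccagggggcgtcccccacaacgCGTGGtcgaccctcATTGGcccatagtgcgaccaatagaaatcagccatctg
Hsp90b1 (chr10:86705524-86705674, - strand): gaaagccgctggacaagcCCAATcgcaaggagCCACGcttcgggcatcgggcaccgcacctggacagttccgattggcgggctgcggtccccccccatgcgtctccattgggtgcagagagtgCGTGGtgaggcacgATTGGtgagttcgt
Canx (chr11:50325769-50325848, - strand): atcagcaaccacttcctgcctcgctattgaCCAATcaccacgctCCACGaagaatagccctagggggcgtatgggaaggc
Dnajc3 (chr14:118937797-118937876, + strand): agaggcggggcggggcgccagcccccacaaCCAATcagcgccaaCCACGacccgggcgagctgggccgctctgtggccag
Hsp90b1 carries the element in both directions, and the other ER genes searched, Dnajb11, Pdia3 and Pdia4, have no match to these letters in the window. A match is a description of the letters and not evidence of a bound site.

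A second element, the heat shock element bound by HSF1, was searched as GAA, any 2 bases, TTC, any 2 bases and GAA on both strands in the same windows and was found in 0.662% of the gene symbols. Among the members it was in the promoters of Hspd1, Hspe1, Dnajb6 and Hsph1. Hspd1 and Hspe1 lie head to head on chromosome 1, Hspd1 on the minus strand at 55077833 to 55088243 and Hspe1 on the plus strand at 55088148 to 55091317. The match is one and the same stretch, present in the promoter windows of both genes. It is shown on the strand of Hspe1 with the GAA and TTC units in capitals, because Hspd1 was the mitochondrial gene called lower in TH2 Itgav KO cells.
Hspd1 and Hspe1 (chr1:55088053-55088082, + strand): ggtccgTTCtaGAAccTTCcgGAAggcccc
The annotated ends of both genes overlap, and the strand used in counting is not given in the sources used here, so that reads in the overlap cannot be assigned to either.

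Some chaperone genes of each compartment fell in TH2 Itgav KO cells, while most were not called. By limma on log2(CPM + 1), with Benjamini-Hochberg adjustment over 9121 genes, 6 of the 38 members were called lower, against 1.67% of all genes, and 0 were called higher, against 1.92% of all genes. At an unadjusted p below 0.05 there were 16 members lower, against 8.50% of all genes, and 0 higher, against 10.6% of all genes. The 6 genes were Calr, Pdia6 and Hspa5 of the ER, Hspd1 of mitochondria, and Hspa4 and Fkbp4 of the cytosol. The median log2 difference of the 38 members was -0.32, with 27 of them negative, where that of all genes was 0.04. In 16 of the 38 members all 3 TH2 Itgav KO libraries were below all 3 TH2 control libraries, against 8.76% of all genes, and in 0 were they all above, against 9.97% of all genes. These 16 were 6 of 9 ER genes, 2 of 4 mitochondrial genes and 8 of 25 cytosolic genes.

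The calls depended on TH2 control library 2. Without it 0 of the 38 members were called, and the adjusted p-values of the 6 genes were 0.0623 to 0.127, while 29 of the 38 differences were still negative and their median was -0.26. The number of genes called over the whole table was then 158 in place of 327. With all libraries, 0 members were called when limma was run with no variance trend, 1 with only the groups compared in the fit and 1 with no filter on low levels. TH2 control library 2 held 23.3 CPM of the TH1 cytokine Ifng, against 1.65 to 3.94 CPM in the other TH2 libraries, and TH2 Itgav KO library 3 held 11.7 CPM of the TH1 factor Tbx21, against 0 to 7.21 CPM in the others. Without these 2 libraries 0 members were called and 29 differences were negative, with a median of -0.22. In 18 members the libraries then did not overlap and were lower, against 19.0% of all genes, and in 1 they were higher, against 21.5% of all genes.

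**Figure D1:**
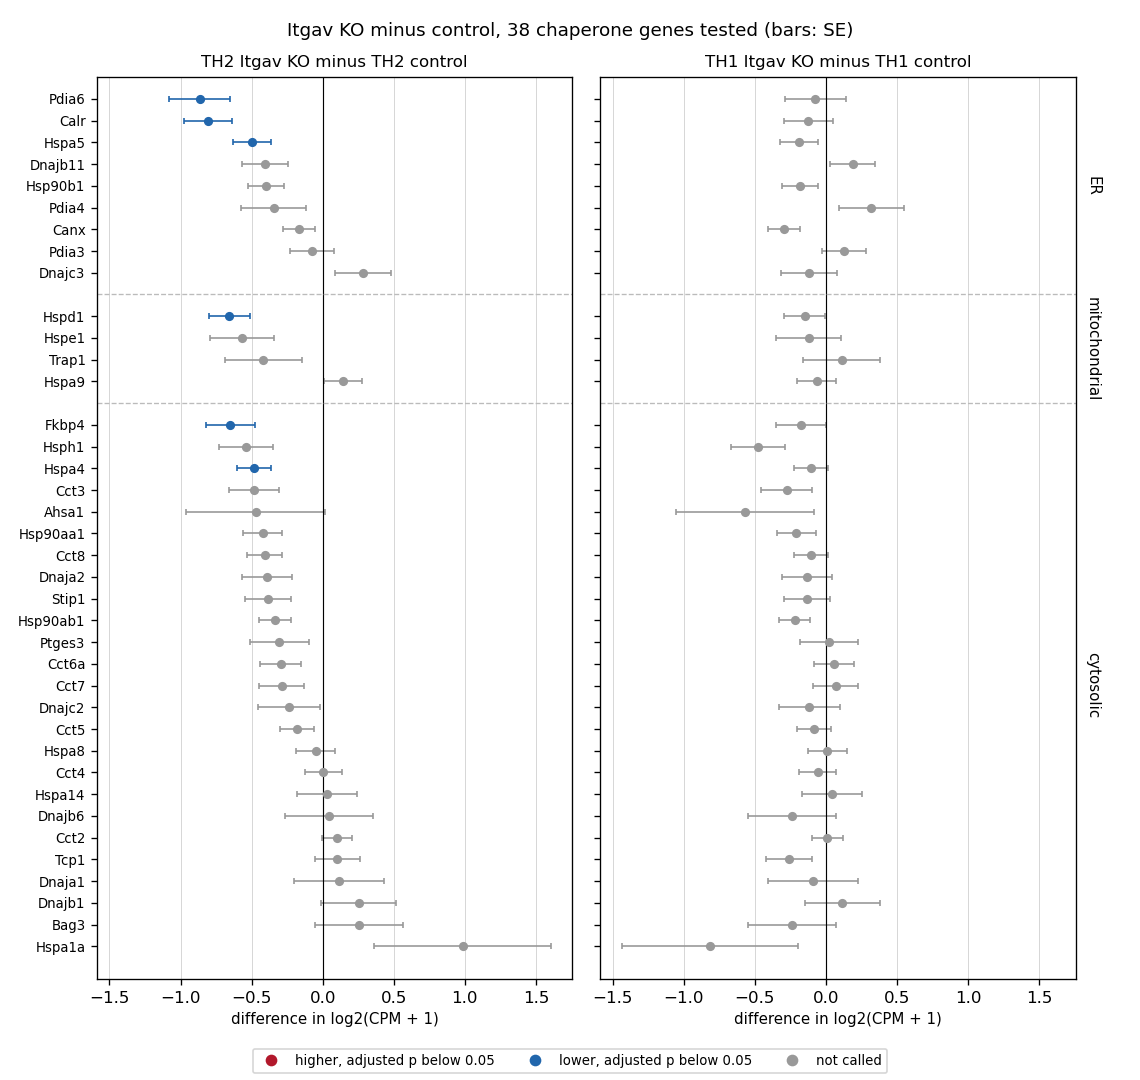
Difference in log2(CPM + 1) for the 38 chaperone genes tested, Itgav KO minus control, in TH2 cells (left) and TH1 cells (right); points are the fitted differences, bars are standard errors and colours mark the calls at an adjusted p below 0.05. In TH2 cells 27 of 38 points lie below 0 and 6 are called lower, and in TH1 cells 27 of 38 lie below 0 and 0 are called.

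The ER genes as a group were lower in each TH2 Itgav KO library. Their summed level was 2493, 2465 and 2448 CPM in TH2 Itgav KO libraries, against 3166, 3280 and 3132 CPM in TH2 control libraries, and the groups did not overlap. In TH1 cells the sums were 2599, 2123 and 2023 CPM in Itgav KO libraries, against 2380, 2424 and 2421 CPM in control libraries, with 1 Itgav KO library above all controls and the others below them. A lower sum was not particular to the ER genes. The cytosolic genes summed to 9367.5 to 10967 CPM in TH2 Itgav KO libraries, against 11716 to 12194 CPM in TH2 control libraries. In TH1 cells the cytosolic sums were 9712 to 10402 CPM, against 10814 to 11005 CPM, also without overlap. The median difference of the 9 ER genes in TH2 cells was -0.40, with 8 negative and 3 called lower.

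Calr encodes calreticulin, a soluble lectin chaperone that also buffers calcium, and lies at 84842088 to 84846931 on chromosome 8. It was at 196, 243 and 176 CPM in TH2 Itgav KO libraries, against 377, 424.5 and 282 CPM in TH2 control libraries. All Itgav KO libraries were lower, and in TH1 cells the 2 groups overlapped at 180 to 233 CPM in Itgav KO libraries, against 207 to 259 CPM in control libraries. Calr fell by 0.81 on the log2 scale in TH2 cells (SE 0.17, adjusted p = 0.0111, limma). Its adjusted p was 0.0623 without TH2 control library 2, and it was below 0.05 with any other single library of the comparison left out.

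Pdia6, a disulfide isomerase that works beside BiP, lies at 17266589 to 17284785 on chromosome 12. It was at 113, 86.1 and 139.8 CPM in TH2 Itgav KO libraries, against 190, 273 and 160 CPM in TH2 control libraries, again without overlap, though library 2 of the control stood well above the others. Pdia6 fell by 0.87 (SE 0.21, adjusted p = 0.0272, limma) and by 0.65 without that library (adjusted p = 0.127). The call was also lost without TH2 Itgav KO library 1 (adjusted p = 0.062) and without TH2 Itgav KO library 2 (adjusted p = 0.118), and held under 8 of 15 alternatives. Hspa5, the ER's HSP70 and the chaperone that holds the stress sensors of the ER inactive, lies at 34772090 to 34776529 on chromosome 2. It was at 387, 431 and 414 CPM in TH2 Itgav KO libraries, against 596, 576 and 565 CPM in TH2 control libraries. The spread within each group was small beside the gap, and Hspa5 fell by 0.50 (SE 0.13, adjusted p = 0.0456, limma). This call was lost when any single library of the comparison was left out, while the difference itself ranged from -0.53 to -0.45 over all alternatives.

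The ER's HSP90, Hsp90b1, was at 647, 571 and 562 CPM in TH2 Itgav KO libraries, against 772, 775 and 792 CPM in TH2 control libraries. The libraries did not overlap, but the difference of -0.40 was not called (SE 0.13, adjusted p = 0.089). Dnajb11, a J protein partner of BiP, was at 88.0, 96.6 and 81.8 CPM in TH2 Itgav KO libraries, against 121, 112 and 120.5 CPM in TH2 control libraries, also without overlap and not called (difference -0.41, SE 0.16, adjusted p = 0.166).

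Canx, Pdia3 and Dnajc3 differed less. Canx encodes calnexin, the membrane-bound counterpart of calreticulin, and was at 653, 665 and 651 CPM in TH2 Itgav KO libraries, against 742, 729.5 and 739 CPM in TH2 control libraries. The groups were tight and did not overlap, yet the difference was small at -0.17 (95% interval -0.40 to 0.07). Pdia3, the disulfide isomerase that pairs with both lectins, differed by -0.07 (95% interval -0.39 to 0.25), and Dnajc3, a J protein that also inhibits eIF2α kinases, by 0.29 (95% interval -0.13 to 0.70). Pdia4 differed by -0.35 with overlapping libraries. Of the 6 genes with the ER stress response element, Calr, Pdia6 and Hspa5 were called lower, Hsp90b1 and Canx were lower without a call, and Dnajc3 was the one ER gene with a positive difference. The ER genes without a match, Dnajb11 (-0.41), Pdia4 (-0.35) and Pdia3 (-0.07), had negative differences as well, without a call. A part of the element in these differences was not tested.

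**Figure D2:**
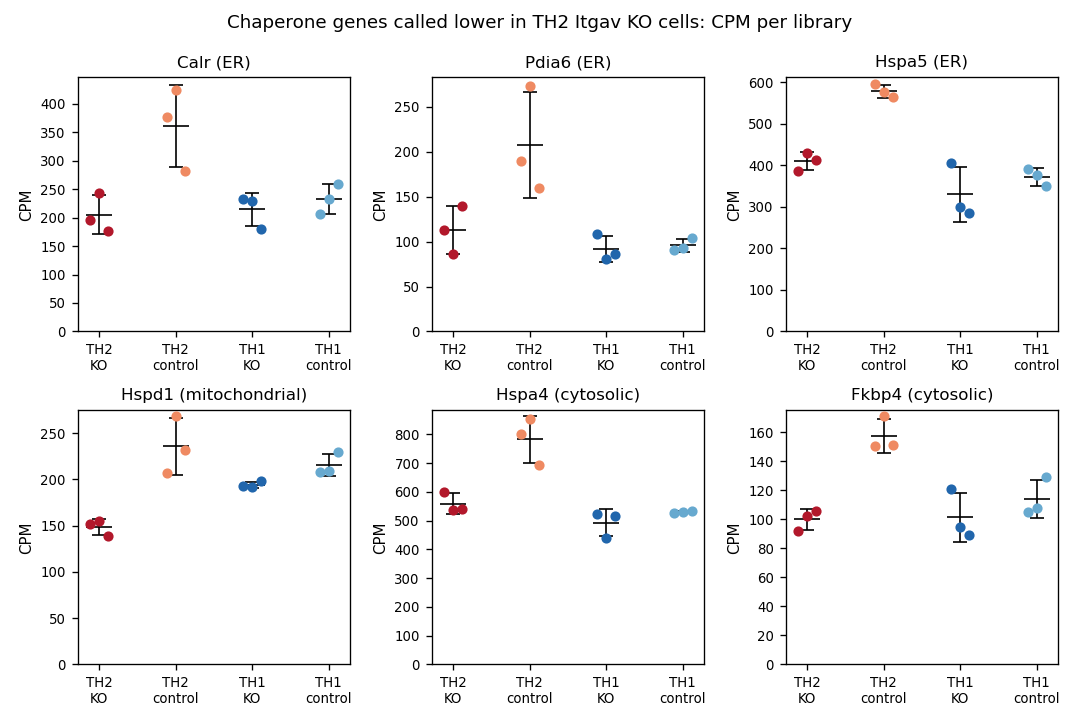
CPM per library of the 6 chaperone genes called lower in TH2 Itgav KO cells, in the order TH2 KO, TH2 control, TH1 KO and TH1 control; points are libraries, dashes are means and bars are standard deviations (n = 3). In each panel the 3 TH2 KO points lie below the 3 TH2 control points, and the TH1 groups lie closer together.

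The 4 mitochondrial genes did not move together. Hspd1 was at 151, 155 and 139 CPM in TH2 Itgav KO libraries, against 206.5, 268 and 232 CPM in TH2 control libraries. All Itgav KO libraries were below the controls, and Hspd1 fell by 0.66 (SE 0.14, adjusted p = 0.0137, limma), with an adjusted p of 0.0678 without TH2 control library 2 and below 0.05 without any other single library. Its partner Hspe1 was at 42.2, 50.4 and 43.9 CPM in TH2 Itgav KO libraries, against 76.4, 66.5 and 61.0 CPM in TH2 control libraries. The libraries did not overlap and the difference of -0.57 was near that of Hspd1, but Hspe1 was not called (SE 0.23, adjusted p = 0.171).

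Hspa9 went the other way without a call, at 584, 571 and 665 CPM in TH2 Itgav KO libraries, against 486, 523 and 648 CPM in TH2 control libraries, a difference of 0.14 (95% interval -0.14 to 0.42). Trap1 was at 60.2, 63.5 and 59.8 CPM in TH2 Itgav KO libraries, against 61.2, 141 and 63.5 CPM in TH2 control libraries. TH2 control library 2 stood alone, the others overlapped, and the difference of -0.42 was not called (adjusted p = 0.424). With Hspa9 as its largest term, the summed mitochondrial level overlapped, at 837 to 907 CPM in TH2 Itgav KO libraries and 830 to 1004 CPM in TH2 control libraries. Reads of both chamber genes are partly ambiguous: 44.8% of the 50-base stretches of the Hspd1 transcript and 36.1% of those of Hspe1 occur exactly in transcripts of other genes, among them annotated Hspd1 and Hspe1 pseudogenes, where the share was 0.468% for Calr and 0% for Pdia6, Hspa5, Hspa4 and Fkbp4.

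**Figure D3:**
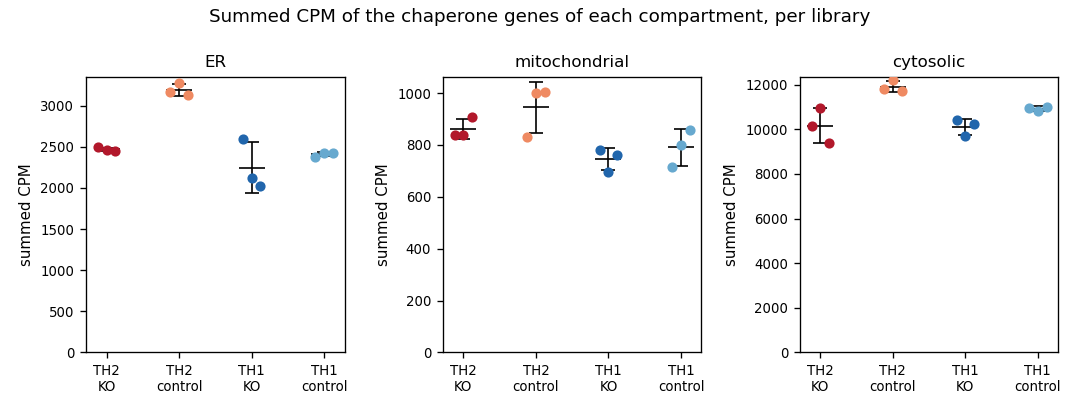
Summed CPM of the ER, mitochondrial and cytosolic chaperone genes in each library, in the order TH2 KO, TH2 control, TH1 KO and TH1 control; points are libraries, dashes are means and bars are standard deviations (n = 3). The ER sums of TH2 KO libraries (2448 to 2493) lie below those of TH2 control libraries (3132 to 3280), and the mitochondrial sums of TH2 KO libraries (837 to 907) overlap those of TH2 control libraries (830 to 1004). The cytosolic sums of KO libraries lie below those of control libraries in TH2 cells (9367.5 to 10967, against 11716 to 12194). They do so in TH1 cells as well (9712 to 10402, against 10814 to 11005).

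Among the cytosolic genes, the HSP90 system had negative differences throughout in TH2 Itgav KO cells. This held for all 6 of its genes (median -0.40), also with TMM scaling, and 1 was called. In TH1 Itgav KO cells 5 of the 6 were negative as well (median -0.19). The 6 genes summed to 3244 to 4257 CPM in TH2 Itgav KO libraries, against 4878 to 5018 CPM in TH2 control libraries. In TH1 cells the sums were 3402 to 3833 CPM in Itgav KO libraries, against 4103 to 4278 CPM in control libraries, also without overlap. Fkbp4, the co-chaperone FKBP52, was at 92.2, 102 and 106 CPM in TH2 Itgav KO libraries, against 151, 171 and 151 CPM in TH2 control libraries. The gap was wide beside the spread, and Fkbp4 fell by 0.65 (SE 0.17, adjusted p = 0.0415, limma), a call that was lost when any single library of the comparison was left out. The constitutive HSP90, Hsp90ab1, was at 3598, 3604 and 2687 CPM in TH2 Itgav KO libraries, against 4092, 4154 and 4109 CPM in TH2 control libraries. TH2 Itgav KO library 3 was the lowest by far, and the difference of -0.33 was not called (SE 0.11, adjusted p = 0.103).

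Hsp90aa1, the inducible HSP90, was at 332.5, 389 and 277 CPM in TH2 Itgav KO libraries, against 434, 458 and 435 CPM in TH2 control libraries (difference -0.42, SE 0.14, adjusted p = 0.0929). Stip1, which bridges HSP70 and HSP90, differed by -0.38, Ptges3 (p23) by -0.30 and Ahsa1, which stimulates the HSP90 ATPase and lay at 3.63 to 14.5 CPM in TH2 libraries, by -0.47. The libraries of Hsp90aa1, Hsp90ab1, Stip1 and Fkbp4 did not overlap between TH2 Itgav KO and TH2 control. Of the 50-base stretches of the Hsp90aa1 transcript, 58.5% occur in other genes' transcripts, so its level is less certain than that of Hsp90ab1, with 4.49%.

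The cytosolic HSP70 genes were mixed. Hspa4, an HSP110-type exchange factor, was at 601, 536 and 540.5 CPM in TH2 Itgav KO libraries, against 801, 853 and 695 CPM in TH2 control libraries. The libraries did not overlap, and Hspa4 fell by 0.48 (SE 0.12, adjusted p = 0.0286, limma), a call lost without TH2 control library 2 (adjusted p = 0.113) and without 3 other libraries in turn. Its relative Hsph1 was at 91.7, 79.6 and 112 CPM in TH2 Itgav KO libraries, against 117, 154 and 141 CPM in TH2 control libraries, a difference of similar size that was not called (-0.54, SE 0.19, adjusted p = 0.126). Hspa8, the constitutive HSP70, was at 747, 1210 and 958 CPM in TH2 Itgav KO libraries, against 1054, 992 and 915.5 CPM in TH2 control libraries. These overlapped fully (difference -0.05, 95% interval -0.33 to 0.24), and 73.2% of the 50-base stretches of Hspa8 are shared with other genes.

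A pair of stress-inducible HSP70 genes pointed the other way. Hspa1a was at 25.1, 20.2 and 57.6 CPM in TH2 Itgav KO libraries, against 11.03, 25.0 and 12.4 CPM in TH2 control libraries, which overlapped (difference 0.98, 95% interval -0.31 to 2.28, adjusted p = 0.412). Its neighbour Hspa1b, which was not tested, was at 15.2, 9.14 and 46.1 CPM in TH2 Itgav KO libraries, against 2.02, 2.04 and 7.45 CPM in TH2 control libraries. All 3 TH2 Itgav KO libraries were higher, with library 3 the highest for both genes. The transcripts are near copies: 60.35% of the 50-base stretches of Hspa1a and 62.3% of those of Hspa1b occur in another gene, so the split of reads between them is uncertain. The 7 tested members of a list of heat-responsive genes, which are Hspa1a, Hsph1, Hsp90aa1, Dnaja1, Dnajb1, Bag3 and the mainly constitutive Hspa8, had 0 calls by limma in either direction (2 at an unadjusted p below 0.05, Hsph1 and Hsp90aa1), 4 positive differences and a median of 0.11.

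**Figure D4:**
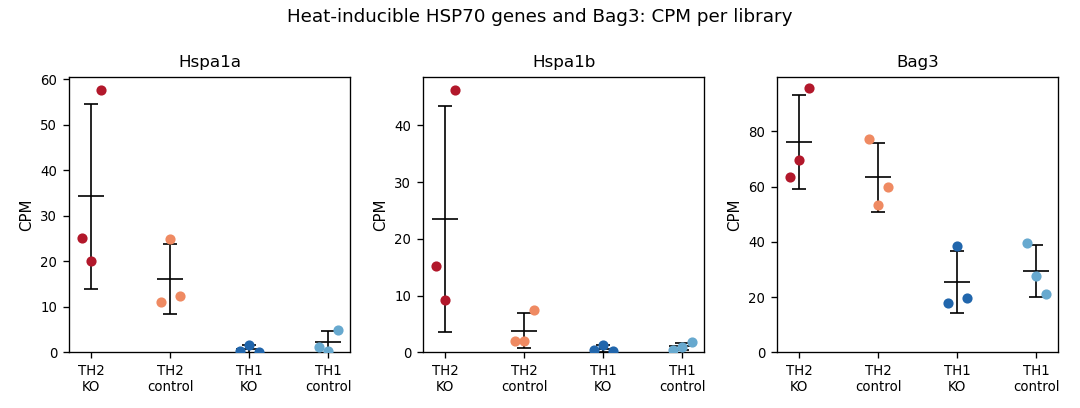
CPM per library of Hspa1a, Hspa1b and Bag3, in the order TH2 KO, TH2 control, TH1 KO and TH1 control; points are libraries, dashes are means and bars are standard deviations (n = 3). All 3 genes are higher in TH2 than in TH1 libraries, and TH2 KO library 3 is the highest for Hspa1a (57.6) and Hspa1b (46.1).

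The J proteins and the TRiC chaperonin had no member called. The 5 cytosolic J proteins had a median difference of 0.05, near that of all genes, and 0 calls by limma, with 1 (Dnaja2, -0.39) at an unadjusted p below 0.05. Dnaja1, Dnajb6 and the ribosome-associated Dnajc2 differed by 0.11, 0.05 and -0.24, and Hspa14, the HSP70 that works with Dnajc2 in human cells, by 0.03 (95% interval -0.41 to 0.47). Dnajb1, the HSP40 that works with inducible HSP70, was at 112, 57.2 and 83.5 CPM in TH2 Itgav KO libraries, against 50.5, 104 and 59.6 CPM in TH2 control libraries, which overlapped (difference 0.25, 95% interval -0.30 to 0.80). The 8 TRiC subunits had 0 calls by limma, 2 (Cct3 and Cct8) at an unadjusted p below 0.05 and a median of -0.23, nearer to that of all 38 members than to that of all genes, with differences of -0.48 (Cct3) to 0.10 (Tcp1). Tcp1, the founding subunit, was at 196, 263 and 196 CPM in TH2 Itgav KO libraries, against 207, 181 and 219 CPM in TH2 control libraries. Cct8 was the subunit nearest to a call, at 401, 409 and 421.5 CPM in TH2 Itgav KO libraries, against 482.5, 638 and 523.5 CPM in TH2 control libraries (difference -0.41, SE 0.12, adjusted p = 0.0699). Cct4 differed by 0.00 (95% interval -0.27 to 0.28) and Cct2 by 0.10 (95% interval -0.12 to 0.32), while Cct5, Cct6a and Cct7 differed by -0.18, -0.30 and -0.29.

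Wider lists of folding genes had 1 call in TH2 Itgav KO cells. Among all genes 1.67% were called lower and 1.92% higher, and at an unadjusted p below 0.05 there were 8.50% lower and 10.6% higher. Of 35 other tested ER genes 1 was lower and 0 higher, with a median of -0.14, and at an unadjusted p below 0.05 there were 8 lower and 1 higher. The gene was Mogs, the glucosidase that starts the trimming of N-glycans, at 57.4, 40.0 and 59.1 CPM in TH2 Itgav KO libraries, against 87.5, 115 and 84.8 CPM in TH2 control libraries (difference -0.87, SE 0.23, adjusted p = 0.0373, limma). By limma 0 of 30 other cytosolic folding genes (median 0.06), 0 of 18 other mitochondrial folding and protease genes (median 0.08) and 0 of 14 prefoldins and TRiC partners (median 0.04) were called. At an unadjusted p below 0.05 there were 4 higher and 2 lower of the cytosolic genes, 3 higher and 1 lower of the mitochondrial genes and 0 higher and 1 lower of the prefoldins and partners. Among the 9 regulators of the unfolded protein response (median 0.02) 0 were called by limma, and 1 was higher at an unadjusted p below 0.05. Xbp1 and Atf4 are given for their levels and not for a p-value. Xbp1 was at 442, 379 and 534 CPM in TH2 Itgav KO libraries, against 401, 373 and 384 CPM in TH2 control libraries, and Atf4 at 525, 478 and 583 CPM, against 470, 596 and 611 CPM. Hsf1, the main heat shock factor, was at 35.8, 31.5 and 40.6 CPM in TH2 Itgav KO libraries, against 35.4, 40.3 and 42.4 CPM in TH2 control libraries. With it, 0 of 3 tested heat shock factors and stress regulators were called by limma, and 0 had an unadjusted p below 0.05. The values of Xbp1, Atf4 and Hsf1 overlapped between the groups.

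In TH1 cells, 0 of the 38 members were called in Itgav KO cells by limma, against 0.844% of all genes. At an unadjusted p below 0.05 there were 2 members (5.26%), Hsph1 (difference -0.48, adjusted p = 0.342) and Canx (difference -0.30, adjusted p = 0.301), against 920 genes in all (10.1%). The median difference was -0.12 with 27 of 38 negative, where that of all genes was 0.00. In 8 members all TH1 Itgav KO libraries lay below all TH1 control libraries, against 10.6% of all genes, and in 0 above, against 10.2% of all genes. These 8 were 1 of 9 ER genes, 1 of 4 mitochondrial genes and 6 of 25 cytosolic genes. Hsp90ab1 was among them, at 3050, 2735 and 3007 CPM in TH1 Itgav KO libraries, against 3516, 3315 and 3392 CPM in TH1 control libraries. Hspd1 was another, at 192, 192 and 198 CPM in TH1 Itgav KO libraries, against 208, 209 and 229.5 CPM in TH1 control libraries, a small shift (difference -0.15, SE 0.14, adjusted p = 0.822). Canx was at 331, 308 and 356 CPM in TH1 Itgav KO libraries, against 404, 434 and 384 CPM in TH1 control libraries. Hspa5 was at 405, 300 and 285 CPM in TH1 Itgav KO libraries, against 391, 376 and 349 CPM in TH1 control libraries, which overlapped. In the wider lists 0 genes were called by limma. At an unadjusted p below 0.05, against 10.1% of all genes, there were 3 of 35 other ER genes, 1 of 30 cytosolic genes, 1 of 18 mitochondrial genes, 1 of 14 prefoldins and TRiC partners and 2 of 9 regulators.

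Whether the effect of Itgav loss differed between TH2 and TH1 cells was tested as the difference of the 2 log2 differences. By limma 0 of 38 members passed, against 0.406% of all genes. At an unadjusted p below 0.05 there were 5 members (13.158%), a share near that of all genes (1002 genes, 10.986%). By direction, 5 members were negative and 0 positive, against 5.0214% of all genes negative and 5.9643% positive. These 5 were Calr (-0.68, adjusted p = 0.279), Pdia6 (-0.79, adjusted p = 0.311), Dnajb11 (-0.60, adjusted p = 0.309), Hspd1 (-0.51, adjusted p = 0.348) and Hspa4 (-0.37, adjusted p = 0.413), with every value more negative in TH2 cells. A difference between the cell types in the effect on any chaperone gene was thus not shown.

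Between the T helper types, 6 of the 11 members called in control cells were ER genes. In control cells 11 of 38 members were called between TH2 and TH1, against 18.3% of all genes. In TH2 control cells 9 members were higher, against 8.58% of all genes, and 2 were lower, against 9.75% of all genes. Of the 9 ER genes 5 were higher and 1 lower, with a median difference of 0.62. The TH2 control libraries are the same ones that served as reference for TH2 Itgav KO cells, so the 2 comparisons are not independent.

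Canx had the smallest adjusted p among the members in both comparisons of TH2 with TH1. In TH2 control libraries it was at 742, 729.5 and 739 CPM, against 404, 434 and 384 CPM in TH1 control libraries (difference 0.86, SE 0.11, adjusted p = 8.53e-06, limma). In TH2 Itgav KO libraries it was at 653, 665 and 651 CPM, against 331, 308 and 356 CPM in TH1 Itgav KO libraries (difference 0.98, SE 0.11, adjusted p = 1.21e-06, limma). TH2 cells thus held more Canx mRNA with and without Itgav, and the call held under each of the 15 alternatives in both comparisons.

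The other ER genes higher in TH2 control cells were not called higher in TH2 Itgav KO cells, though the test of that change is the same as the one above, which 0 members passed. Pdia6 was at 190, 273 and 160 CPM in TH2 control libraries, against 90.65, 93.1 and 104 CPM in TH1 control libraries (difference 1.07, SE 0.21, adjusted p = 0.000899, limma), and its difference between TH2 Itgav KO and TH1 Itgav KO cells was 0.28 (adjusted p = 0.379). Pdia4 was at 84.2, 97.2 and 131 CPM in TH2 control libraries, against 71.5, 60.8 and 45.4 CPM in TH1 control libraries (difference 0.80, SE 0.23, adjusted p = 0.0167, limma), and 0.14 higher between the Itgav KO groups (adjusted p = 0.724). For Hspa5 the differences were 0.64 between control groups (adjusted p = 0.00165) and 0.33 between Itgav KO groups (adjusted p = 0.0832), and for Calr 0.62 (adjusted p = 0.0145) and -0.07 (adjusted p = 0.832). The Calr call between control groups was lost without TH2 control library 2 (adjusted p = 0.0735), without TH1 control library 1 (adjusted p = 0.0762) and under 2 further alternatives, and held under 11 of 15.

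A pair of ER genes was lower in TH2 cells. Pdia3 was at 175, 198 and 210 CPM in TH2 control libraries, against 270, 263 and 305 CPM in TH1 control libraries (difference -0.52, SE 0.15, adjusted p = 0.0211, limma), and at 196, 184 and 173 CPM in TH2 Itgav KO libraries, against 366, 316 and 245 CPM in TH1 Itgav KO libraries (difference -0.72, SE 0.15, adjusted p = 0.00155, limma). Dnajb11 was lower in TH2 Itgav KO cells, at 88.0, 96.6 and 81.8 CPM, against 186, 171 and 150 CPM in TH1 Itgav KO cells (difference -0.92, SE 0.16, adjusted p = 0.000205, limma). In control cells its libraries did not overlap either, but its difference of -0.32 was not called (adjusted p = 0.18).

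**Figure D5:**
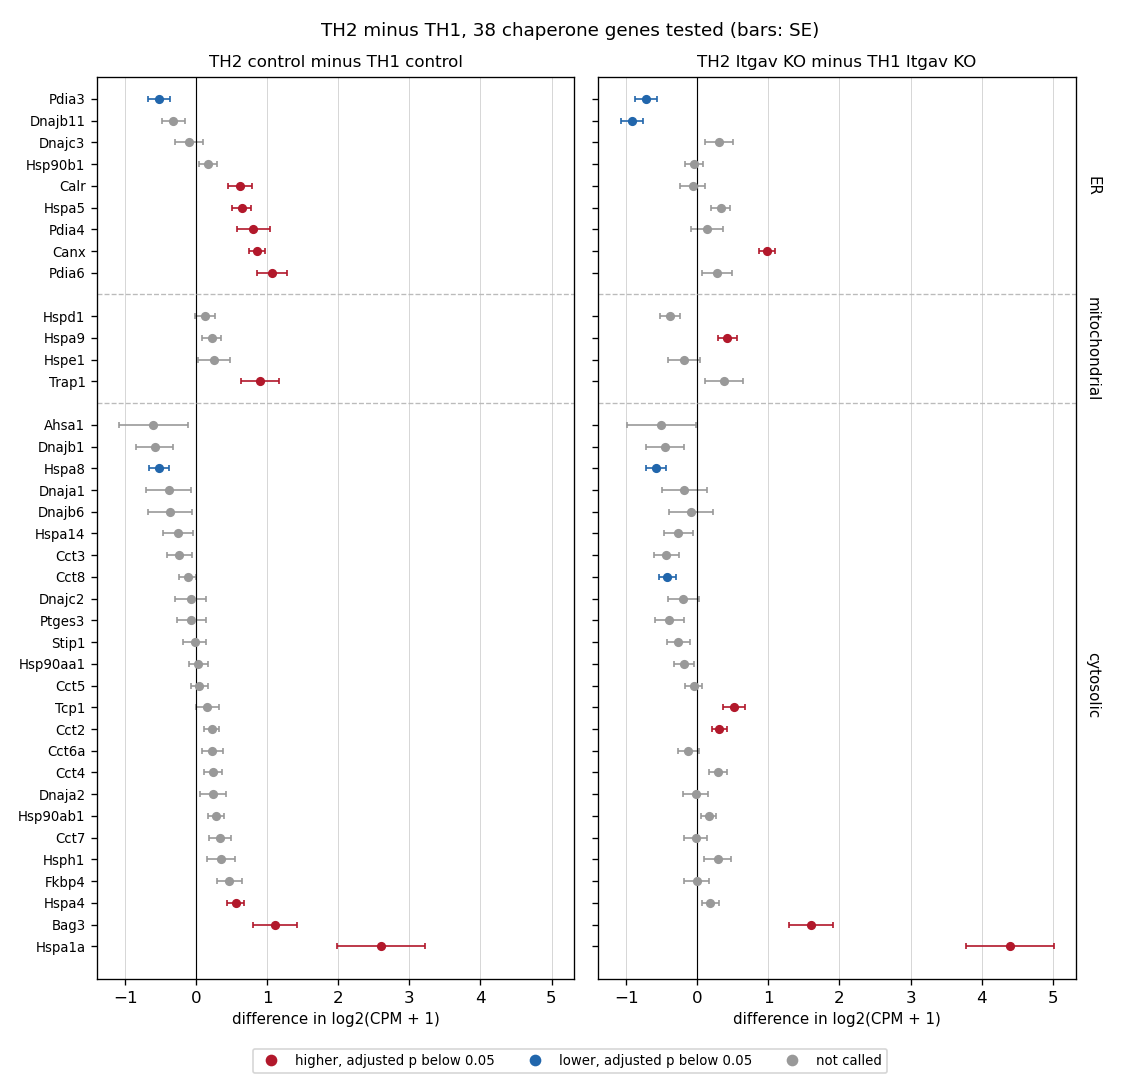
Difference in log2(CPM + 1) for the 38 chaperone genes tested, TH2 minus TH1, in control cells (left) and in Itgav KO cells (right); points are the fitted differences, bars are standard errors and colours mark the calls at an adjusted p below 0.05. In control cells 5 ER genes are called higher and 1 lower, and in Itgav KO cells 1 is called higher and 2 lower, with Hspa1a farthest to the right in both (2.598 and 4.40).

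In Itgav KO cells 10 of 38 members were called between TH2 and TH1, against 23.7% of all genes. Of these 6 were higher in TH2 Itgav KO cells, against 12.2% of all genes, and 4 lower, against 11.6% of all genes, a split that became 5 higher and 6 lower with scaling by trimmed means. The members' share of calls was thus near that of the whole table. Without TH1 Itgav KO library 3 the count was 6, and with no variance trend it was 5. Between control cells it was 7 without TH1 control library 3, where Bag3, Pdia3, Pdia4 and Trap1 were no longer called, and 7 with no variance trend. The calls of Canx, Pdia6, Hspa5 and Hspa4 between control cells held with any single library left out. That of Hspa1a did so too, but this gene passed the filter only through its TH2 libraries, so its call is a description.

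The inducible HSP70 gene Hspa1a was detected mainly in TH2 libraries. Hspa1a, at 11.03 to 57.6 CPM in the 6 TH2 libraries, was at 0.273, 1.72 and 0 CPM in TH1 Itgav KO libraries and at 1.27, 0.376 and 5.02 CPM in TH1 control libraries, where 3 reads correspond to 0.225 to 0.382 CPM. The groups did not overlap, but Hspa1a passed the filter of 10 CPM only through its TH2 libraries, so that its calls between the types, which are among those counted above, are a description of its levels. The difference was 2.598 between control groups (SE 0.62, adjusted p = 0.00464, limma) and 4.40 between Itgav KO groups (SE 0.62, adjusted p = 1.81e-05, limma), on a log2(CPM + 1) scale that understates the change of such low genes. Bag3, which couples HSP70 to autophagy, was at 77.3, 53.1 and 59.7 CPM in TH2 control libraries, against 39.4, 27.7 and 21.1 CPM in TH1 control libraries (difference 1.11, SE 0.31, adjusted p = 0.0146, limma). In Itgav KO cells it was at 63.5, 69.5 and 95.5 CPM in TH2 libraries, against 18.0, 38.5 and 19.8 CPM in TH1 libraries (difference 1.60, SE 0.31, adjusted p = 0.000611, limma).

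The constitutive Hspa8 was lower in TH2 cells. It was at 1054, 992 and 915.5 CPM in TH2 control libraries, against 1558, 1330 and 1383 CPM in TH1 control libraries (difference -0.53, SE 0.14, adjusted p = 0.00898, limma), and it differed by -0.58 between TH2 Itgav KO and TH1 Itgav KO cells (SE 0.14, adjusted p = 0.00337, limma). The call between control groups was lost without TH1 control library 1 (adjusted p = 0.0548), with no filter (adjusted p = 0.0529) and with no variance trend (adjusted p = 0.0941), and that between Itgav KO groups with no variance trend (adjusted p = 0.0538). Hspa4 was at 801, 853 and 695 CPM in TH2 control libraries, against 525, 531 and 533 CPM in TH1 control libraries (difference 0.56, SE 0.12, adjusted p = 0.00188, limma). Between the Itgav KO groups its difference was 0.18 (adjusted p = 0.298).

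Of the mitochondrial genes 1 of 4 was called between control groups and 1 of 4 between Itgav KO groups, and of the TRiC subunits 0 of 8 and 3 of 8, against 18.3% and 23.7% of all genes. Trap1 was called higher in TH2 control cells (difference 0.90, SE 0.27, adjusted p = 0.0222, limma), at 61.2, 141 and 63.5 CPM, against 41.9, 47.5 and 41.2 CPM in TH1 control libraries, but without TH2 control library 2 the difference was 0.51 and the adjusted p 0.151. Hspa9 was called higher in TH2 Itgav KO cells, at 584, 571 and 665 CPM, against 491, 400.3 and 467 CPM in TH1 Itgav KO libraries (difference 0.42, SE 0.14, adjusted p = 0.0281, limma), and the summed mitochondrial level did not overlap, at 837 to 907 CPM in TH2 Itgav KO libraries, against 697 to 780 CPM in TH1 Itgav KO libraries. Among the TRiC subunits, Tcp1 (0.52, adjusted p = 0.0225) and Cct2 (0.31, adjusted p = 0.0415) were higher and Cct8 (-0.42, adjusted p = 0.016) was lower in TH2 Itgav KO than in TH1 Itgav KO cells, and by limma 0 of the 8 were called between control groups, with 1 (Cct7, 0.33) at an unadjusted p below 0.05. Each of these 4 calls was lost with at least 1 single library left out: those of Hspa9 and Tcp1 with 3 of the 6 libraries in turn, that of Cct2 with 5, and that of Cct8 without TH1 Itgav KO library 3 (adjusted p = 0.0635).

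The wider lists also held genes called between the types, where 8.58% of all genes were higher and 9.75% lower in TH2 control cells. In TH2 control against TH1 control cells, 7 of 35 other ER genes were higher and 3 lower, led by Ero1a, the oxidase that recharges disulfide isomerases, at 705, 747 and 905 CPM, against 256, 184 and 147 CPM (difference 2.03, SE 0.17, adjusted p = 1.84e-08, limma). Pdia5 (1.79) and Erp29 (1.26) were also higher, and Edem1, which hands misfolded glycoproteins to degradation, was lower (-1.31). Of 18 other mitochondrial genes 5 were higher and 1 lower, led by Atf5 (1.28), Clpx (1.22), Afg3l2 (1.20) and Clpb (0.93), the last 3 being proteins of the mitochondrial protease and disaggregase machinery. Of 30 other cytosolic genes 3 were lower, Fkbp5 (-1.65), Hspbp1 (-1.55) and Cdc37 (-0.55), and 0 higher, a share of calls below that of all genes (18.3%). Among regulators Xbp1 (0.72) and Atf4 (0.53) were higher and Eif2ak3 (PERK, -1.81) and Hsf2 (-1.96) lower in TH2 control cells, and by limma 0 of 14 prefoldins and TRiC partners were called, with 0 at an unadjusted p below 0.05.

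In TH2 Itgav KO against TH1 Itgav KO cells the same lists gave 6 higher and 4 lower of 35 other ER genes, 6 higher and 2 lower of 18 mitochondrial genes, 1 higher and 3 lower of 30 cytosolic genes and 0 higher and 2 lower of 14 prefoldins and TRiC partners, against 12.2% of all genes higher and 11.6% lower. The calls among the cytosolic genes, and those among the prefoldins and partners, were a smaller share than among all genes (23.7%). Ero1a (2.15), Afg3l2 (1.65) and Xbp1 (0.92) were again higher and Edem1 (-1.12), Fkbp5 (-1.30), Eif2ak3 (-1.29) and Hsf2 (-1.26) again lower. Pdia5 (2.04), Clpb (1.47) and Dnajb4 (1.33) were called higher, and Cnpy3 (-1.32), Dnajc9 (-1.03) and Tbca (-0.85) lower.

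Per kilobase of annotated exon, the highest members were the same in the 4 groups. Hsp90ab1 was the highest in each, with a mean of 1099 CPM per kb in TH2 Itgav KO, 1373 in TH2 control, 977 in TH1 Itgav KO and 1136 in TH1 control cells. Cct2 followed, at 453, 422, 366 and 363 CPM per kb in the same order of groups, and then Hspa8, at 226, 230, 333 and 331 CPM per kb. The length joins the exons of all transcripts of a gene, and the order of Cct2 and Hspa8 in TH1 cells depends on it. It was 4301 bases for Hspa8 and 2557 for Cct2, where their longest coding transcripts have 2394 and 1959 bases. The highest ER gene was Hsp90b1, at 147, 193, 153 and 172 CPM per kb. Hspa1a and Hspa1b were the lowest members in TH1 cells, at 0.224 and 0.221 CPM per kb in TH1 Itgav KO and 0.75 and 0.386 CPM per kb in TH1 control cells, while Ahsa1 was the lowest in TH2 Itgav KO cells, at 1.45 CPM per kb. The 39 genes together took 1.27% to 1.43% of the CPM in TH2 Itgav KO libraries, against 1.58% to 1.65% in TH2 control libraries, and 1.25% to 1.38% in TH1 Itgav KO libraries, against 1.40% to 1.43% in TH1 control libraries, with no overlap between Itgav KO and control in either type.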

How the data were processed

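Single-end reads of 50 bases were trimmed by the authors (Trim Galore 0.50), mapped to GRCm38 (STAR 2.6.0a) and compared with DESeq2 1.18.1. For the counter and the gene annotation, no name is given in the sources used here. The values deposited by the authors are CPM, with 0.0001 added to each, which was subtracted. All 12 columns of values were used. CPM sums to the same total in each library, so a gene taking a large share lowers the others: Rn45s took 5.84% of TH2 control library 1 and 0.751% to 2.30% of the others.

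Low values were whole multiples of 1 read, which gave the depth (100% of values whole within 0.1 reads); floors cover counting error only. The chi-square per degree of freedom between libraries of one group was 18.5 to 76.3, above sampling noise. In TH2 control cells it was 76.3 (libraries 1 and 2), 53.3 (1 and 3) and 36.1 (2 and 3). It was 24.5 to 36.4 in TH2 Itgav KO cells and 18.5 to 29.7 in the TH1 groups. The test shares the spread of each gene over all groups, so it does not follow this difference.

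The test covered genes that reached 10 CPM in 3 or more libraries and used limma 3.58.1 (R 4.3.3) on log2(CPM + 1), with a variance trend, a mean for each of the 4 groups over all 12 libraries and two-sided p-values adjusted over all tested genes (threshold 0.05). The procedure was tested on simulated data. Genes called in an Itgav KO comparison, the largest differences between TH2 and TH1 and the best-known chaperones of each compartment are given per library, and the others by range and count; Dnajb11, Hsp90b1 and other members singled out for libraries that did not overlap, Hsph1, Hspa1b and Cct8 were chosen after their values were seen. The members and lists were chosen with earlier results of these data known. Shared 50-base stretches were counted in the longest coding transcript of each member (GENCODE M21; for Cct6a the longest transcript) against transcripts of other genes. Promoters are from RefSeq. Alternatives were TMM scaling, a pseudocount of 0.25, filters of 1 CPM or none, no variance trend, the groups compared alone, the replicate number as a block, and leaving out libraries; leaving out Rn45s was added after the data were seen.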

Additional observations from a re-analysis of the deposited data

How the results depend on the processing

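The 6 calls in TH2 Itgav KO against TH2 control cells were made also with TMM scaling, a pseudocount of 0.25 and without Rn45s, and 5 were made with a filter of 1 CPM. The count was 1 with no filter, 1 with only the groups compared, 0 with no variance trend and 0 when TH2 control library 2 and TH2 Itgav KO library 3 were both left out, and it ranged over 0 to 5 with 1 library left out, 0 being without TH2 control library 2. Between control cells, the count was 7 in place of 11 without the variance trend, and it ranged over 7 to 11 with 1 library left out. Between Itgav KO cells, the count was 5 without the variance trend and ranged over 6 to 10 with 1 library left out. In TH1 Itgav KO against control cells and for the difference between the types, 0 members were called under all alternatives run. No called member changed direction under any of them. The median difference of the ER genes in TH2 Itgav KO cells ranged from -0.43 to -0.36, that of the mitochondrial genes from -0.62 to -0.26 and that of the cytosolic genes from -0.32 to -0.16. Count models with edgeR and DESeq2 were planned on reads recovered from CPM and were not run, so the calls under them are not known. The recovered reads served only for the depth, the TMM scaling and the chi-square between libraries.

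No pairing of the libraries by replicate number was seen: of 18 same-numbered pairs 0 had a correlation of deviations over 0.1 (range -0.066 to 0.026). This cannot show that they were unpaired, because the spread between libraries could hide a pairing and the labels name neither mice nor cultures. With the replicate number as a block, 4 members were called in TH2 Itgav KO cells, 0 in TH1 Itgav KO cells, 0 for the difference, 11 between control cells and 9 between Itgav KO cells.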
